A study of Mus musculus with 17 samples.

Results

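PRCC-TFE3 KI kidneys were compared with Cre(-) kidneys by RNA sequencing of mouse kidney RNA. Members were chosen by sample title, PRCC-TFE3 KI replicates 1 to 3 and Cre(-) replicates 1 to 4, which makes 7 of the 17 libraries of the study. The PRCC-TFE3 KI kidneys (n = 3) carried a lox-stop-lox PRCC-TFE3 allele at the Rosa26 locus together with KSP-Cre, a recombinase driven by the cadherin 16 promoter in tubular epithelium. The Cre(-) kidneys (n = 4) carried the same allele without Cre, and replicates 1 and 2 of them also carried floxed Hif1a. Fusion and control mice were 8 months old, and their sex is not given. The study used an existing mouse model of TFE3-rearranged renal cell carcinoma and deleted Hif1α, Hif2α or both in it. Its other 10 libraries come from fusion kidneys with those deletions. They shared the variance estimate with the 7 libraries compared here and are quoted only where they are named.

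TFE3 is a MiT/TFE transcription factor that switches on genes of lysosomes and autophagy, and mTORC1 together with folliculin and the Rag GTPases normally holds it in the cytoplasm. Gene fusions such as PRCC-TFE3 keep an active form of it in the nucleus and drive translocation renal cell carcinoma. The nephron is a chain of segments with their own transporters, and its proximal tubule burns mostly fatty acids in mitochondria.

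Sequencing depth was similar in the groups, with 18547274, 22641506, 18797525 and 19841142 counts in Cre(-) kidneys and 16504419, 17851649 and 18173319 in PRCC-TFE3 KI kidneys. The kidney label was checked against markers of the nephron. In Cre(-) kidneys mean TPM (a length-scaled share of transcripts) was 351 for the proximal endocytic receptor Lrp2, 1527 for uromodulin (Umod) of the ascending limb and 1160 for the thiazide-sensitive cotransporter Slc12a3 of the distal convoluted tubule. Cdh16, the kidney cadherin whose promoter drives the Cre, was at 1139, 1119, 1161 and 1221 CPM (counts scaled to library size) in Cre(-) and at 704, 577 and 625 in PRCC-TFE3 KI, without overlap. It fell to 0.548 of control (log2 fold change -0.87 ± 0.09 SE, adjusted p = 8.3e-07 from the edgeR quasi-likelihood test after Benjamini-Hochberg correction). Because the tissue was sequenced in bulk, fewer cells of a type and less RNA per cell cannot be told apart for this or any later gene.

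The knock-in is a human cDNA, so its reads could only be seen where they aligned to the mouse genes. Tfe3 was nonetheless higher, and Prcc slightly higher, in every knock-in kidney. Of the HIF alpha genes that the study later deleted, the knock-in alone moved Hif1a up and Epas1 (Hif2α) slightly down. Tfe3 was at 36.2, 34.3, 36.7 and 37.1 CPM in Cre(-) and at 58, 51.7 and 60 in PRCC-TFE3 KI, and Prcc, a nuclear protein gene, was at 42.2, 37.4, 39.3 and 40.7 against 45.2, 46.5 and 50.7. Neither gene's groups overlapped. Tfe3 rose 1.57-fold (log2 fold change 0.65 ± 0.08, adjusted p = 3.3e-06) and Prcc 1.19-fold (0.25 ± 0.08, adjusted p = 0.00903) (edgeR quasi-likelihood, Benjamini-Hochberg). In fusion kidneys labeled as lacking Hif1α, Hif2α or both, log2 values against Cre(-) were 0.55, 0.62 and 0.48 for Tfe3. For Prcc they were 0.03, 0.06 and -0.02, in that order. How much of either gain came from human reads was not tested. Hif1a read 102, 128, 118 and 118 CPM in controls against 228, 232 and 184, a rise of 0.88 ± 0.13 on the log2 scale. Epas1 went from 196, 205, 243 and 257 to 173, 192 and 179 CPM and fell by 0.31 ± 0.09, again without overlap. The fall of Epas1 depended on scaling, since library totals put it at 0.03.

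**Figure D1:**
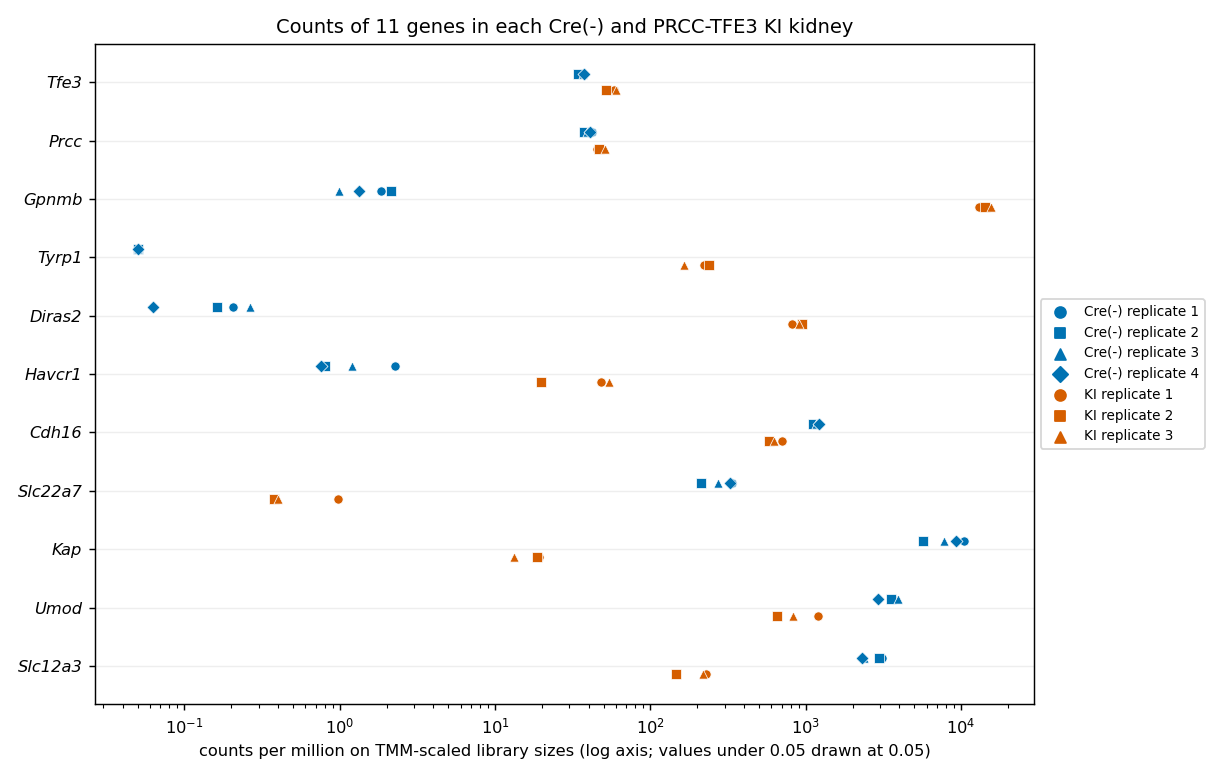
Expression of 11 genes in each Cre(-) and PRCC-TFE3 KI kidney. Points are CPM on a log axis, and values under 0.05 are drawn at 0.05.

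The knock-in rewrote most of the kidney transcriptome in both directions. Melanosome genes were among the largest gains, and organic anion transporters and secreted proteins such as Kap and albumin were among the largest losses. Of 35971 annotated genes, 17011 passed the count filter and 10362 (60.9%) changed, 5381 (31.6% of those tested) higher and 4981 (29.3%) lower in PRCC-TFE3 KI. The groups did not overlap for 4687 of the higher and 4475 of the lower genes. The median log2 fold change over all tested genes was 0.03. At 2-fold or more 2436 genes were higher and 2234 lower, and at 16-fold or more 291 and 194. Counts of 4-fold or more were 1072 and 824.

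How counts were scaled moved this balance. Reads of mitochondrial genes made up 21.5, 19.1, 22.2 and 23.1% of counts in Cre(-) kidneys and 8.85, 8.84 and 8.68% in PRCC-TFE3 KI kidneys, which leaves a larger share of each knock-in library to nuclear genes. Trimmed-mean scaling, used throughout, put 51.9% of changed genes higher. Scaling by library totals shifted the median log2 value up by 0.34 and put 74.1% higher (8546 against 2991), and TPM put 78.2% higher (8843 against 2458). For many lists a second split, under another scaling, is given below.

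Genes at 10 TPM or more in either group were ranked by fitted fold change. The 8 largest gains without overlap were Tyrp1, Gpnmb, Diras2, Rps10-ps2, Gm6088, Crisp1, Tspan10 and Gm6122. Tyrp1, Rps10-ps2, Gm6088, Crisp1 and Gm6122 had no reads in controls. Their lower bounds were 1101-fold, 118-fold, 111-fold, 102-fold and 41-fold, so neither their order nor their place among the 8 is established. Diras2, a Ras-like GTPase gene of neurons, was at 0.206, 0.161, 0.265 and 0.0631 CPM in Cre(-) and at 818, 950 and 902 in PRCC-TFE3 KI. Tspan10, a tetraspanin of pigment cells, was at or under 0.0686 CPM in every control and at 71.3, 73.9 and 70.4 in the knock-in. Crisp1, a secreted epididymal protein gene, had no reads in controls and 5.81, 16.4 and 35.3 CPM, at least 102-fold. No group of these genes overlapped its control. Rps10-ps2, Gm6088 and Gm6122 are processed pseudogenes whose reads may belong to other loci, so their place here is uncertain.

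By the same fitted ranking the 8 largest losses were Nccrp1, Slc22a7, Kap, C8a, Slc22a22, Ccdc170, Alb and Slc22a19. The place of Nccrp1 is not established, since its fold is only a lower bound. Kap, a secreted androgen-responsive proximal tubule protein, was at 10513, 5686, 7716 and 9262 CPM in Cre(-) and at 19.3, 18.5 and 13.2 in PRCC-TFE3 KI. The organic anion transporter gene Slc22a7 went from 336, 213, 272 and 327 to 0.977, 0.377 and 0.399 CPM. Both fell 489-fold without overlap (adjusted p = 4.2e-06 for Kap and 1.5e-05 for Slc22a7, edgeR quasi-likelihood, Benjamini-Hochberg). Nccrp1, an F-box-like protein of epithelia, was at 12.8, 22.6, 45.1 and 29.6 CPM in controls and had no reads in any knock-in kidney, at least 164-fold lower. The complement chain C8a, the prostaglandin carrier Slc22a22, the cilium-linked Ccdc170, albumin (Alb) and the S3 carrier Slc22a19 fell 468-fold, 247-fold, 175-fold, 175-fold and 169-fold in the fit. In the knock-in kidneys C8a had 2, 9 and 1 counts, Slc22a22 had 0, 3 and 2, Ccdc170 had 5, 4 and 3, and Alb had 1, 2 and 3. Those 4 folds are therefore imprecise.

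Many lysosome and melanosome genes, which MiT/TFE factors serve, were higher in the knock-in kidneys. Some pigment-cell genes came on from near nothing. Most listed lysosomal hydrolases and lysosomal membrane and cofactor proteins rose, as did most genes of the folliculin and Rag GTPase circuit that restrains TFE3. Among the MiT/TFE factors 1 of 4 rose (Tfe3) and 1 fell (Mitf), with a median log2 change of 0.13, and 3 rose and 1 fell under library totals. Mitf, the melanocyte relative, dropped from 37.5, 34.9, 39.7 and 31.6 CPM to 14.8, 16.7 and 19.1 (-1.09 ± 0.15), and without PRCC-TFE3 KI replicate 1 Tfeb would pass as higher too (0.25).

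Of 11 tested melanosome genes 9 rose and none fell (median 1.94 against 0.03 over all genes, and 1.94 also with Tyrp1 at its lower bound). Without Cre(-) replicate 3 or 4, 1 melanosome gene fell. Gpnmb, a lysosomal and melanosomal glycoprotein, was at 1.85, 2.14, 0.993 and 1.33 CPM in Cre(-) and at 13009, 14211 and 15629 in PRCC-TFE3 KI. That was an 8938-fold rise without overlap (log2 fold change 13.13 ± 0.53, adjusted p = 8.3e-11, edgeR quasi-likelihood, Benjamini-Hochberg), and at a mean of 11471 TPM it became the most abundant gene of its list. Tyrp1, a melanin-synthesis enzyme, had no reads in any control and 220, 238 and 165 CPM in the knock-in, at least 1101-fold higher. The cation channel Trpm1 climbed from 1.1, 1.07, 1.46 and 1.39 to 505, 444 and 407 CPM, 360-fold, with no overlap.

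Lysosomal hydrolases rose in 21 of 36 cases and fell in 7 (median 0.47), or 26 and 5 under library totals and 28 and 3 under TPM. The protease cathepsin L (Ctsl) was at 423, 380, 412 and 410 CPM in Cre(-) and at 6580, 7659 and 7933 in PRCC-TFE3 KI, 18.2-fold up without overlap. Its mean reached 9779 TPM. The hexosaminidase subunit Hexa rose 10.6-fold (3.41 ± 0.12) and cathepsin S (Ctss) 5-fold (2.32 ± 0.16), whereas the acid lipase Lipa fell 4.03-fold from 268, 223, 235 and 240 to 54, 54.4 and 71.1 CPM. Membrane and cofactor proteins rose in 15 of 20 cases and fell in 4 (median 0.78). The sphingolipid activator precursor Psap, most abundant of them, rose 4.66-fold and the calcium channel Mcoln1 3.17-fold. The GM2 activator Gm2a fell 2.5-fold.

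Of the ubiquitous V-ATPase subunits 6 of 16 were higher and 4 lower, near the shares of all genes tested (median 0.12), or 10 and 1 under library totals. The membrane-sector subunit Atp6v0a1 was at 71.5, 62.9, 75.2 and 80.2 CPM in controls and at 428, 418 and 402 in the knock-in, 5.74-fold up without overlap, while the catalytic Atp6v1a fell by 0.66 ± 0.12. Of 28 autophagy genes 10 rose and 9 fell, near the 31.6% and 29.3% of all genes tested (median 0.1, or -0.03 without PRCC-TFE3 KI replicate 3), or 17 and 2 under library totals. Its gains included the cargo receptors optineurin (Optn), 16.1-fold, and p62 (Sqstm1), 3.05-fold, while the ligase Atg10 fell by 0.88 ± 0.15. Of the folliculin and Rag GTPase genes 8 of 12 rose and 3 fell (median 0.58), or 9 and 1 under library totals. The GTPase Rragd went from 89.5, 94.3, 67.6 and 59.9 CPM to 293, 312 and 339 (2.02 ± 0.14), the folliculin partner Fnip2 rose by 1.58 ± 0.12 and Rragb by 1.64 ± 0.18. The Ragulator subunits Lamtor5 and Lamtor2 fell by 1.05 ± 0.14 and 0.51 ± 0.1.

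MiT/TFE factors bind a short palindrome-like sequence, written TCACGTGA or TCATGTGA, near the start of many lysosome genes. TCACGTGA is its own reverse complement, and TCATGTGA was searched on both strands of 300-base windows around RefSeq GRCm38.p6 gene starts, without overlapping matches. Either form was found in 606 of 27025 genes with a window (2.24%) and in 340 of 12265 tested genes with a window (2.77%). A gene counts once over all its windows. The share was 3.21% among higher, 2.37% among lower and 2.73% among genes not past the threshold. In the 6 fusion-program lists 17 of 98 genes with a window held a match (17.3%). By list it was 4 of 11 for the V-ATPase (36.4%), 4 of 17 for membrane proteins (23.5%) and 6 of 27 for hydrolases (22.2%). It was 2 of 11 for folliculin and Rag genes (18.2%), 1 of 10 for melanosome and none of 22 for autophagy genes. Of those 17 genes 12 rose, among them the protease Ctsd (497, 494, 420 and 477 CPM against 2139, 2066 and 2282, named here after its values were seen), 3 fell and 2 did not pass the threshold. Over all tested members, 21 of 36 hydrolases, 15 of 20 membrane proteins, 8 of 12 folliculin and Rag genes and 9 of 11 melanosome genes rose. So did 6 of 16 V-ATPase and 10 of 28 autophagy genes. Members of these lists with and without a match were not compared. A match describes the sequence and does not show that the fusion binds there. The windows of Mcoln1 (chr8:3500269-3500568, plus strand), Ctsd (chr7:142387778-142388077, minus strand), Cln3, a lysosomal membrane protein (chr7:126583187-126583486, minus strand), Atp6v0d1, a pump subunit (chr8:105566015-105566314, minus strand), and Atp6v1a, which fell (chr16:44139210-44139509, minus strand), follow from start to end of the gene's strand, with the match in capitals.

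Mcoln1: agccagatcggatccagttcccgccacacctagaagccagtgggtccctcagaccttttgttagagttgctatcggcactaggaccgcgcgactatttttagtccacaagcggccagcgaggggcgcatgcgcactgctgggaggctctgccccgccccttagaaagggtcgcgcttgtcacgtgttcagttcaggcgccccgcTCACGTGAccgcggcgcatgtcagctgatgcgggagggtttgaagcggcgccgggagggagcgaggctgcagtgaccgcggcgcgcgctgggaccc
Ctsd: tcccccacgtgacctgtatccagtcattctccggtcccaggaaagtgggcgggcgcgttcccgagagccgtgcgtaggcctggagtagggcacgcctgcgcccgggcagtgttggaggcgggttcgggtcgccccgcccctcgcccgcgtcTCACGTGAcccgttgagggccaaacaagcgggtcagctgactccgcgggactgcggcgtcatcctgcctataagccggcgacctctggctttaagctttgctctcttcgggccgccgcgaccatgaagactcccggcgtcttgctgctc
Cln3: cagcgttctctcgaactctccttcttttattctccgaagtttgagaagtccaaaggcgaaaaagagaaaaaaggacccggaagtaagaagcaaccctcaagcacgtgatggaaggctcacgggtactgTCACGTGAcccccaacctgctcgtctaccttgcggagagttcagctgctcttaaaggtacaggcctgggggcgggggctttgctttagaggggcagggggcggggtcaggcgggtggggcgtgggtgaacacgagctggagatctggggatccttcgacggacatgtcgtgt
Atp6v0d1: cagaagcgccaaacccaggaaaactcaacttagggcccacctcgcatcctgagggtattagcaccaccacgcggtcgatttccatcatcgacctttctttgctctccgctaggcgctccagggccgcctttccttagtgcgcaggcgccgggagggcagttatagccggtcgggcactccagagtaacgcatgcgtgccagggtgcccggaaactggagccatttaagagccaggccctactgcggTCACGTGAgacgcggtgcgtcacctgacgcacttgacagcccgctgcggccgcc
Atp6v1a: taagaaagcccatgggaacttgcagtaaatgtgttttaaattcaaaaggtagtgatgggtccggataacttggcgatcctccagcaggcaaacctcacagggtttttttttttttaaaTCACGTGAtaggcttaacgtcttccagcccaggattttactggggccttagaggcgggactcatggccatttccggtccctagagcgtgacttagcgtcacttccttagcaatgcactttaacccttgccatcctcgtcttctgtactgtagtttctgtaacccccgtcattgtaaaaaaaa

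Every segment of the nephron lost expression of its own genes. Transporters of the early proximal tubule had the lowest median of the segment lists, and brush border genes, salt carriers, acid-base transporters and calcium handling genes of later segments fell as well. Most podocyte genes were lower too although the Cre is driven in tubules. Most transcription factors of nephron identity were lower while a few were higher. Of 23 transporters of proximal segments S1 and S2, 22 fell and none rose, with a median of -3.37 against 0.03 over all genes. The phosphate carrier Slc34a1, most abundant of them, was at 3812, 3272, 3330 and 3439 CPM in Cre(-) and at 118, 76.1 and 136 in PRCC-TFE3 KI. It fell 31.5-fold without overlap (log2 fold change -4.98 ± 0.5, adjusted p = 5.9e-07, edgeR quasi-likelihood, Benjamini-Hochberg). The organic anion transporters Slc22a8 and Slc22a6 fell 60.9-fold and 39.5-fold, and the phosphate carrier Slc34a3 fell 43.7-fold.

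The last proximal segment, S3, had 11 of 12 genes lower and 1 higher (median -2.21). The aminotransferase gene Aadat went from 1685, 1540, 1908 and 1725 CPM to 122, 75.4 and 86.1, 18.2-fold down, while the most abundant member, the protease Napsa, fell 1.8-fold only and the oxysterol hydroxylase Cyp7b1 rose by 0.95 ± 0.19. Brush border endocytosis and peptidase genes were lower in 15 of 17 cases (median -1.73). Megalin (Lrp2) was at 5161, 5043, 5243 and 4098 CPM in controls and at 329, 297 and 317 in the knock-in, a 15.6-fold fall without overlap. The peptidase Mep1b fell 54-fold, the amino acid transport partner Cltrn 16.8-fold and the glutathione-cleaving Ggt1 3.84-fold, and 1 gene of the list rose.

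Factors of nephron identity were lower in 16 of 23 cases and higher in 4 (median -1.31), or 15 and 7 under library totals. Hnf4a, the proximal tubule regulator, was at 880, 866, 933 and 911 CPM in Cre(-) and at 192, 189 and 274 in PRCC-TFE3 KI (log2 fold change -2.04 ± 0.22, adjusted p = 1.4e-06, edgeR quasi-likelihood, Benjamini-Hochberg). The nuclear receptor Esrrb fell by 4.26 ± 0.38, the homeobox gene Emx1 by 2.76 ± 0.35 and Hnf4g by 2.53 ± 0.34. Of the factors that rose, Irx2 went up by 1.52 ± 0.11, and Pax2 (1 ± 0.16), Irx1 (0.96 ± 0.13) and Pax8 (0.74 ± 0.11), named after their values were seen, went with it.

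In the thin limb 6 of 9 genes fell and 2 rose (median -0.89). The water channel Aqp1, shared with the proximal tubule, fell 2.53-fold and the urea transporter Slc14a2 5.66-fold, while the ectoenzyme Bst1 rose by 2.19 ± 0.32. The count of rises is 1 without PRCC-TFE3 KI replicate 2 or 3 or Cre(-) replicate 2 or 4. In the thick ascending limb 12 of 14 genes fell (median -1.9). Epidermal growth factor (Egf) was at 2004, 2022, 2385 and 1869 CPM in Cre(-) and at 19.5, 12.4 and 25 in PRCC-TFE3 KI, a 109-fold fall without overlap (adjusted p = 1.2e-05, edgeR quasi-likelihood, Benjamini-Hochberg). The salt carrier Slc12a1 fell 12.2-fold, the phosphatase inhibitor Ppp1r1a 17.2-fold, the paracellular channel Cldn10 9.48-fold and Umod 3.93-fold, from 3647, 3553, 3948 and 2906 to 1193, 657 and 833 CPM. The macula densa synthase Nos1 was the only gene of this list that rose, from 5.48, 4.23, 4.37 and 3.66 to 142, 144 and 78.3 CPM.

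Distal convoluted tubule genes fell in 15 of 17 cases and none rose (median -2.05). The salt carrier Slc12a3 was at 3091, 2975, 2356 and 2294 CPM in controls and at 228, 147 and 217 in the knock-in, 13.6-fold lower without overlap. Its regulator Klhl3 fell 9.22-fold, the calcium buffer Calb1 5.96-fold and the sodium pump subunit Fxyd2 5.41-fold. Principal cell genes fell in 11 of 14 cases (median -1.32), with the cortisol-inactivating Hsd11b2 5.05-fold and the channel regulator Fxyd4 3.95-fold lower, and Aqp3, a basolateral water channel, rose 2.42-fold together with the sialyltransferase St6gal1. Intercalated cells lost 16 of 18 genes (median -2.39). Pendrin (Slc26a4) fell 12.1-fold, the receptor Insrr 13.1-fold and the carbonic anhydrases Car12 and Car2 8.28-fold and 3.46-fold, and the receptor Kit alone rose, from 26.5, 40.9, 28.7 and 30.2 CPM to 148, 180 and 255.

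Podocyte genes were lower in 10 of 15 cases and higher in 4 (median -0.72). Nephrin (Nphs1) of the slit diaphragm was at 55.1, 54.4, 52.1 and 52.7 CPM in Cre(-) and at 9.08, 4.36 and 9.42 in PRCC-TFE3 KI, 7.04-fold lower without overlap. The chloride channel Clic3 fell 4.18-fold, while the matrix-binding Thsd7a rose by 1.28 ± 0.14. Kidney hormone and calcium genes lost 12 of 17 members and gained 2 (median -2.29). Renin (Ren1) dropped from 125, 110, 74.8 and 118 to 4.66, 8.35 and 5.42 CPM, the converting enzyme Ace fell 13.4-fold and the phosphate hormone co-receptor Kl 11.6-fold. Angiotensinogen (Agt) moved the other way, from 55, 46.6, 47.3 and 48.4 to 1063, 1001 and 1127 CPM, 21.6-fold up.

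**Figure D2:**
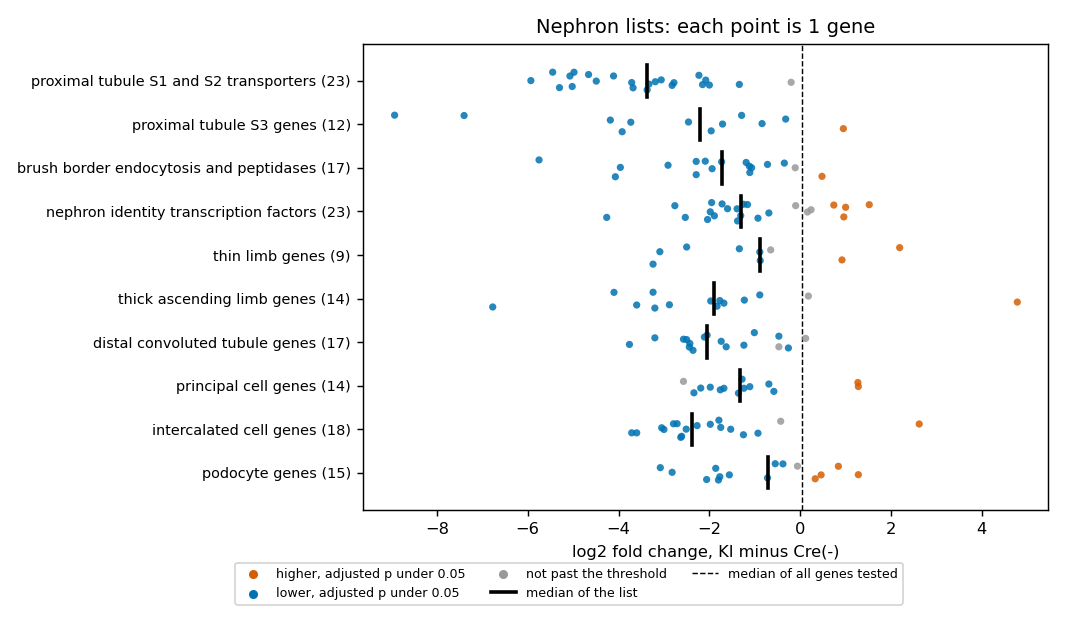
Log2 fold changes of genes in nephron segment lists, PRCC-TFE3 KI minus Cre(-). Each point is a gene, colored by its call, and bars mark list medians.

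Genes that differ between male and female kidneys were checked because sex is not given. Of 10 tested members 7 fell and 3 rose (median -2.42), with Kap the most abundant, and the prolactin receptor Prlr fell 28.6-fold. Y-linked Ddx3y was at 0.137, 0.0535, 0.0662 and 0 CPM in Cre(-) and at 0.0575, 0.108 and 0.0571 in PRCC-TFE3 KI, so Y-linked reads of it were near 0 in all 7 kidneys. Of 2 sex-linked genes tested 1 fell, Kdm5d, by 0.86 ± 0.19, but its reads may come from the X-linked Kdm5c.

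Energy metabolism lost its oxidative side. Fatty acid oxidation, peroxisomes, the citric acid cycle, the respiratory chain in both genomes, ketone use, glucose production and amino acid breakdown were lower almost gene by gene. Glycolysis did not rise as a whole under trimmed-mean scaling, but a few of its steps did so steeply. Among pentose phosphate enzymes, G6pdx and Pgd were higher. All 22 citric acid cycle enzymes fell (median -1.17). Malate dehydrogenase (Mdh2), most abundant of them, was at 391, 358, 330 and 327 CPM in Cre(-) and at 198, 193 and 204 in PRCC-TFE3 KI, without overlap. The succinyl-CoA ligases Suclg1 and Sucla2 fell 3.62-fold and 3.33-fold.

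Nuclear genes of the respiratory chain fell in 51 of 52 cases (median -0.93), and none rose. The ATP synthase subunit Atp5b was at 2744, 2667, 2619 and 2516 CPM in controls and at 1203, 1207 and 1246 in the knock-in (log2 fold change -1.11 ± 0.09, adjusted p = 6.7e-08, edgeR quasi-likelihood, Benjamini-Hochberg). Succinate dehydrogenase subunits Sdhb and Sdha fell 3.45-fold and 2.92-fold and the complex I subunit Ndufs1 3.1-fold. All 13 mitochondrial-encoded genes fell (median -1.63), and their summed CPM was 271021, 230122, 273709 and 287375 against 83191, 84142 and 89217. The complex I subunits mt-Nd2 and mt-Nd4l fell 5.37-fold and 4.3-fold, and mt-Atp6 of the ATP synthase fell 3.09-fold. Regulators of mitochondrial biogenesis were lower in 11 of 14 cases and higher in 3 (median -0.71), or 7 and 3 under library totals. With TPM 4 were lower and 3 higher (median -0.13), so the size of this fall depends on scaling. The deacetylase Sirt3 fell 3-fold and the nuclear receptor Esrra 2.24-fold, while the coactivator Pprc1 rose by 1.16 ± 0.15.

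Fatty acid oxidation enzymes fell in 21 of 23 cases (median -1.63). The fatty acid carrier Slc27a2 was at 3957, 3732, 3607 and 3919 CPM in Cre(-) and at 375, 291 and 429 in PRCC-TFE3 KI, 10.4-fold lower without overlap, and the medium-chain ligases Acsm1 and Acsm2 fell 52-fold and 16.7-fold. The 1 gene that rose, the ligase Acsm3, was at 2.3, 69.2 and 5.88 CPM in PRCC-TFE3 KI and at 7.4, 3.27, 8.27 and 4.74 in Cre(-), with overlap, and the count of rises is 0 without PRCC-TFE3 KI replicate 2 or Cre(-) replicate 1, 2 or 4. Peroxisomal enzymes fell in 19 of 20 cases (median -1.62), the hydroxyacid oxidase Hao2 49.4-fold and the oxidase Acox2 23.9-fold, and the acetyl transferase Crat rose by 0.74 ± 0.13. Of 7 ketone enzymes 6 fell (median -1.48), Bdh1 and Acat1 4.2-fold each and Oxct1 2.79-fold, but the cytosolic ligase Aacs, which feeds acetoacetate into lipid synthesis, rose 5.39-fold.

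Gluconeogenesis and fructose enzymes fell in 10 of 12 cases and rose in 2 (median -3.12), with 1 rise without PRCC-TFE3 KI replicate 2 or 3 or Cre(-) replicate 1 or 3. Pck1, the entry enzyme of glucose production, was at 2396, 4987, 2403 and 2900 CPM in controls and at 35.5, 72.9 and 111 in the knock-in, 43.4-fold lower without overlap (adjusted p = 1.4e-05, edgeR quasi-likelihood, Benjamini-Hochberg). The bisphosphatase Fbp1 fell 21.6-fold and the creatine-synthesis enzyme Gatm 49.4-fold. All 29 amino acid catabolism enzymes fell (median -1.9), including the tyrosine pathway enzyme Hpd 38.5-fold and the methyltransferase Bhmt 16.7-fold. Cytochrome P450, UGT and SULT enzymes were lower in 15 of 22 cases and higher in 4 (median -2.67), with Cyp2d12 86.2-fold and Ugt3a1 47.8-fold down. Ugt1a2 fell and Ugt1a1 rose, which is uncertain because Ugt1a genes share exons.

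Glycolysis enzymes rose in 9 of 19 cases and fell in 4 (median 0.19), or 10 and 3 under library totals. With TPM 13 rose and 3 fell (median 0.57), so this balance depends on scaling. Hexokinase 2 (Hk2), which starts glycolysis, was at 2.47, 1.23, 1.72 and 1.01 CPM in Cre(-) and at 477, 417 and 355 in PRCC-TFE3 KI, 262-fold up without overlap (log2 fold change 8.03 ± 0.52, adjusted p = 7.8e-09, edgeR quasi-likelihood, Benjamini-Hochberg). The enolase Eno2 rose 23.1-fold and the lactate exporter Slc16a3 12.4-fold, whereas the aldolase Aldoc fell 3.74-fold and Gapdh did not pass the threshold. Without PRCC-TFE3 KI replicate 3 the lower count is 8 and the list median -0.21. Of 7 pentose phosphate enzymes 3 rose and 2 fell (median 0.15), beside 31.6% and 29.3% of all genes tested, or 5 and 0 under library totals. The NADPH-producing steps G6pdx and Pgd rose 2.11-fold and 2.49-fold, and the transketolase Tkt fell 1.33-fold. The lower count is 1 without PRCC-TFE3 KI replicate 1 or 3 or Cre(-) replicate 1.

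Cholesterol enzymes fell in 10 of 22 cases and rose in 3 (median -0.17), but under library totals 9 rose, 9 fell and the median was 0.18, so the direction of this family depends on scaling. The lanosterol demethylase Cyp51 fell 8.06-fold from 471, 394, 439 and 394 to 63.9, 57.2 and 37 CPM, the pathway's Hmgcs1 fell 2.63-fold, and the sterol sensor Insig1 rose 3.73-fold. Fatty acid synthesis and lipid storage genes rose in 7 of 22 cases and fell in 8, shares near those of all genes tested (median 0.25, or -0.06 without PRCC-TFE3 KI replicate 2), or 12 and 8 under library totals. The desaturase Scd1 fell 4.57-fold and the elongase Elovl6 3.82-fold, while the lipid droplet coat Plin4 rose from 8.98, 12, 8.74 and 10 to 235, 371 and 304 CPM, 30.4-fold.

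**Figure D3:**
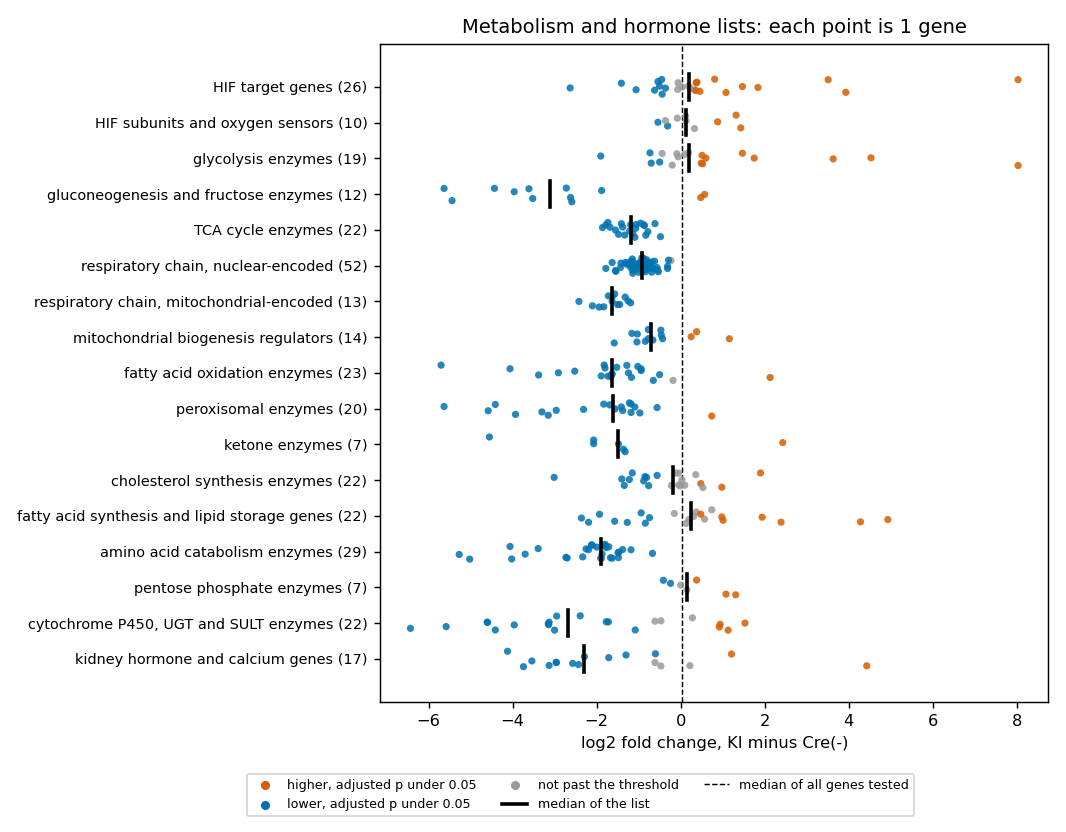
Log2 fold changes of genes in metabolism lists, PRCC-TFE3 KI minus Cre(-). Each point is a gene, colored by its call, and bars mark list medians.

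These losses were accompanied by higher RNA of many injury genes, cell division genes and genes that brake division. Most tubular damage markers, mitotic genes, p53 targets and cell cycle inhibitors were higher, with a few members of the damage and mitosis lists lower. Among tubular injury genes 18 of 22 rose and 2 fell (median 2.35). Kim-1 (Havcr1), a surface receptor of damaged proximal cells, was at 2.26, 0.803, 1.19 and 0.758 CPM in Cre(-) and at 48.3, 19.8 and 53.8 in PRCC-TFE3 KI, 33-fold up without overlap (log2 fold change 5.04 ± 0.42, adjusted p = 7.9e-08, edgeR quasi-likelihood, Benjamini-Hochberg). The iron-binding Lcn2 rose 53.1-fold, the keratin Krt20 13.4-fold and osteopontin (Spp1), the most abundant, 2.56-fold. The repair factor Sox9, named after its values were seen, went from 2.4, 1.5, 2.38 and 1.52 to 47, 36.9 and 44.9 CPM. The integrin Itgb6 fell 2.75-fold.

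Cell cycle and mitosis genes rose in 26 of 30 cases and fell in 2 (median 1.26). Cyclin D1 (Ccnd1) was at 309, 285, 374 and 290 CPM in controls and at 1672, 1586 and 1013 in the knock-in, 4.52-fold up without overlap. Cdk1 rose 7.52-fold and Ccnb1 6.38-fold, and Ccnd3 fell 1.91-fold. The kidneys were not alike here, with list medians of 1.62, 1.45 and 0.48 in PRCC-TFE3 KI replicates 1, 2 and 3. Targets of p53 and cell cycle inhibitors rose in 15 of 21 cases and none fell (median 1.24), while 2 fell without PRCC-TFE3 KI replicate 3 and 1 without Cre(-) replicate 3. Cdkn2a, which encodes p16 and p19, was at 0, 0.161, 0 and 0.0631 CPM in Cre(-) and at 8.51, 4.2 and 4.85 in PRCC-TFE3 KI, without overlap. Its neighbor Cdkn2b rose 10.2-fold, the stress cytokine Gdf15 41.2-fold and the death effector Bax 2.36-fold.

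Receptor tyrosine kinases and ligands rose in 9 of 23 cases and fell in 7 (median 0.22), or 12 and 5 under library totals. The receptor Ret, which guides ureteric bud growth, went from 0.617, 0.857, 1.32 and 1.33 CPM to 51.3, 47.9 and 25.4, 40.2-fold up, and the ligand Hbegf rose 3.6-fold. Of the signaling genes of mTORC1 and insulin 8 of 20 rose and 6 fell (median 0.03), or 13 and 5 under library totals. In both lists the balance of higher and lower genes was near that of all genes tested, 31.6% and 29.3%. Among single genes the insulin receptor substrate Irs2 rose 5.49-fold, Irs1 fell 2.35-fold and the kinase Akt1 rose 1.95-fold.

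ATF4 targets of the integrated stress response rose in 13 of 23 cases and fell in 3 (median 0.51), or 15 and 3 under library totals. The death regulator Ddit3 was at 15.3, 17.9, 22.3 and 22 CPM in controls and at 117, 110 and 150 in the knock-in, 6.48-fold up, Atf3 rose 19.1-fold and the mitochondrial serine enzyme Shmt2 fell 4.07-fold. Without PRCC-TFE3 KI replicate 3 the count of lower ATF4 targets is 5. Targets of NRF2 rose in 5 of 22 cases and fell in 9 (median 0.04, or -0.03 without PRCC-TFE3 KI replicate 3), while library totals gave 12 up and 5 down, which turns the direction. Heme oxygenase (Hmox1) rose from 15.8, 18.5, 19.1 and 22.1 to 92, 103 and 188 CPM, and the transferase Gsta2 fell 9.57-fold. The malic enzyme Me1 fell 2.41-fold and the glutathione reductase Gsr 2.14-fold.

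Hypoxia genes did not move as a block under trimmed-mean scaling. Of 26 HIF targets 11 rose and 9 fell (median 0.21), and the falling members included classical ones. Library totals gave 15 up and 3 down and TPM 17 and 2 (median 0.6), so this balance depends on scaling. The collagen crosslinker Lox was at 4.25, 5.19, 3.05 and 4.86 CPM in Cre(-) and at 23.3, 33.2 and 93.1 in PRCC-TFE3 KI, 11.4-fold up without overlap. Carbonic anhydrase 9 (Car9) fell 6.2-fold and Ndrg1, a stress-responsive protein and the most abundant target, 2.08-fold. Per kidney the list median was -0.16, 0.01 and 0.61 in PRCC-TFE3 KI replicates 1 to 3, and without replicate 3 it was -0.09, while without replicate 1 or 2 the lower count was 5. Among HIF subunits and oxygen sensors 3 of 10 rose and 2 fell (median 0.12), beside 31.6% and 29.3% of all genes tested, or 7 and 0 under library totals. The ubiquitin ligase Vhl and the partner Arnt2 rose 2.7-fold and 2.49-fold, and the hydroxylase Egln1 fell 1.45-fold.

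Renal carcinoma markers were mixed, 5 of 13 up and 7 down (median -0.87). Gpnmb and Kit rose, whereas Mme (CD10) fell 7.51-fold and Trim63, a muscle ubiquitin ligase used as a marker of this tumor, fell 7.48-fold from 15.2, 12.2, 11.9 and 18.6 to 1.03, 1.67 and 3.08 CPM.

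**Figure D4:**
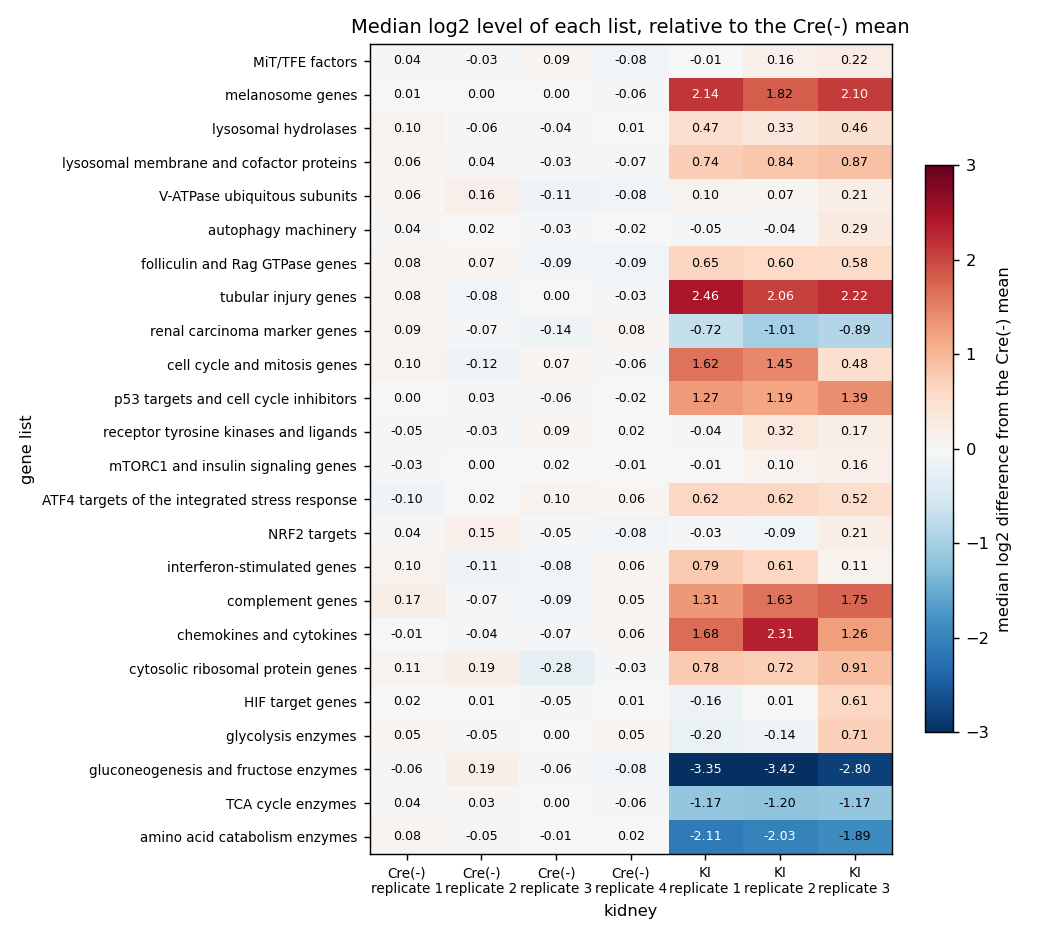
Median log2 difference of selected gene lists in each Cre(-) and PRCC-TFE3 KI kidney from the mean of Cre(-) kidneys.

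Genes of other kidney cells also read differently. Most macrophage, antigen presentation, complement, chemokine, immunoglobulin and matrix genes were higher, most endothelial genes were lower, and some lists were carried by a single kidney. Macrophage genes rose in 17 of 19 cases and none fell (median 1.99). Their summed CPM was 910, 657, 547 and 618 in Cre(-) and 3328, 3579 and 2943 in PRCC-TFE3 KI, without overlap, and the invariant chain Cd74 was most abundant. Cd68, a lysosomal glycoprotein, rose from 5.76, 4.55, 3.24 and 5.49 to 1128, 1061 and 1151 CPM, 234-fold (adjusted p = 1.2e-11, edgeR quasi-likelihood, Benjamini-Hochberg), far beyond the complement subunit C1qa (25.8, 18.3, 21.2 and 27.5 against 101, 127 and 97.5) and Csf1r, the growth factor receptor of macrophages, which did not pass the threshold. C1qa and Csf1r are named after their values were seen. Whether tubular cells made part of the Cd68 RNA was not tested. Leaving out Cre(-) replicate 2 makes 1 macrophage gene lower.

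Dendritic cell and MHC genes rose in 10 of 15 cases and fell in 2 (median 1.3), with summed CPM of 1550, 1407, 1172 and 1378 against 4568, 4999 and 3745. B2m, the light chain of class I molecules and the most abundant gene, rose 3.53-fold, H2-D1 and H2-K1 rose 3.61-fold and 3.39-fold, and Clec9a, a dendritic cell receptor, fell by 1.46 ± 0.38. The lower count is 1 without PRCC-TFE3 KI replicate 2 or 3 or Cre(-) replicate 4. Complement genes rose in 13 of 16 cases and fell in 2 (median 1.48), or 1 without PRCC-TFE3 KI replicate 2. C3 was at 73.4, 70.5, 47 and 44.8 CPM in controls and at 747, 1293 and 2115 in the knock-in, 23.5-fold up, C4b rose 35.4-fold and the tubular factor Cfb fell 4.45-fold. Of 18 chemokines and cytokines 12 rose and none fell (median 1.81), including the neutrophil attractant Cxcl1 15.7-fold and Lif, an interleukin 6 relative, 10.9-fold, and 1 falls without Cre(-) replicate 4. Interferon-stimulated genes rose in 14 of 24 cases and fell in 3 (median 0.46), or 18 and 3 under library totals, Mx1 9-fold and Ifit3 2.59-fold, while the GTPase Gbp3 fell 2.46-fold.

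B and plasma cell genes rose in 10 of 14 cases and fell in 1 (median 2.43), with summed CPM of 292, 680, 533 and 329 in Cre(-) and 2712, 2189 and 1604 in PRCC-TFE3 KI. The light chain Igkc, most abundant, went from 116, 270, 218 and 143 to 1198, 864 and 676 CPM without overlap. The list leaned on a single kidney, since 4 of its genes rose without PRCC-TFE3 KI replicate 2 (median 1.18), with none lower without replicate 3. With TPM 7 rose and none fell (median 1.2). T and NK cell genes rose in 4 of 16 cases (median 0.99), or 8 under library totals. Without PRCC-TFE3 KI replicate 2 the count was 1 (median 0.33), and without replicate 3 it was 9 (median 1.42). They summed to 17.6, 19.1, 18 and 19.4 against 32, 61 and 15.6 CPM, with Trac most abundant. Neutrophil genes were low throughout, 8.78, 4.5, 7.88 and 7.7 against 8.39, 9.05 and 7.7 CPM in sum, 2 of 6 up and 1 down (median 0.89), with Csf3r most abundant.

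Fibroblast and matrix genes rose in 16 of 20 cases and fell in 1, Col6a3 (median 1.63), and their sum went from 748, 584, 687 and 789 to 1841, 1766 and 2023 CPM. The protease inhibitor Timp1 rose 33.3-fold, the collagenase Mmp14 5.38-fold and Sparc, a matrix glycoprotein and the most abundant, 3.21-fold. Smooth muscle, pericyte and renin cell genes rose in 5 of 11 cases and fell in 1, Ren1 (median 0.17), or 8 and 1 under library totals, and 2 fell without Cre(-) replicate 2, with sums of 535, 457, 411 and 515 against 541, 618 and 503 and Tagln, a smooth muscle actin binder, most abundant. Endothelial genes fell in 10 of 15 cases and rose in 1 (median -0.65), or 6 and 1 under library totals and 4 and 2 under TPM. Their sum went from 724, 837, 918 and 1055 to 567, 566 and 595 CPM, the glomerular membrane protein Ehd3 fell 2.76-fold, the vessel receptor Tek 2-fold and von Willebrand factor (Vwf) rose 2.35-fold. Emcn was the most abundant.

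Genes of fat, urothelium and blood differed between single kidneys of the same group. Adipocyte genes rose in 7 of 14 cases and fell in 2 (median 2.4), or 10 and 1 under library totals and 4 and 1 with TPM (median 1.34). Without PRCC-TFE3 KI replicate 2 none rose and the median was -0.4, without Cre(-) replicate 2 or 3 the rises were 4, and without PRCC-TFE3 KI replicate 1 or 3 the falls were 1. Adipsin (Cfd), a secreted fat cell protease, was at 65.1, 2.84, 2.71 and 9.79 CPM in Cre(-) and at 28.3, 1279 and 93.5 in PRCC-TFE3 KI, with overlap. The list summed to 3598, 5619, 2878 and 3490 against 350, 3534 and 502 CPM, led by Pck1, which tubules share. Urothelial genes rose in 8 of 9 cases (median 2.16) and summed to 35.4, 27.1, 26.7 and 46.2 against 145, 228 and 43.2 CPM, with the plaque protein Upk1a most abundant and overlapping. The count is 5 without PRCC-TFE3 KI replicate 1 or 2 or Cre(-) replicate 2 or 3.

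Erythroid genes summed to 460, 507, 498 and 1004 CPM in Cre(-) and 40.6, 36.1 and 425 in PRCC-TFE3 KI, led by the globin Hbb-bs, whose paralogs share reads. Of 6 genes 1 fell, the anion exchanger Slc4a1, which intercalated cells share (median -1.77). All 6 fell with TPM (median -2.35) and without PRCC-TFE3 KI replicate 3 (median -4.41). Adrenal genes summed to 6.38, 7.33, 6.35 and 6.57 against 5.75, 7.59 and 11.4 CPM with 1 of 2 higher, the steroid hydroxylase Cyp21a1 at no more than 1.18 CPM, and Star, a cholesterol carrier of steroid cells, most abundant.

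**Figure D5:**
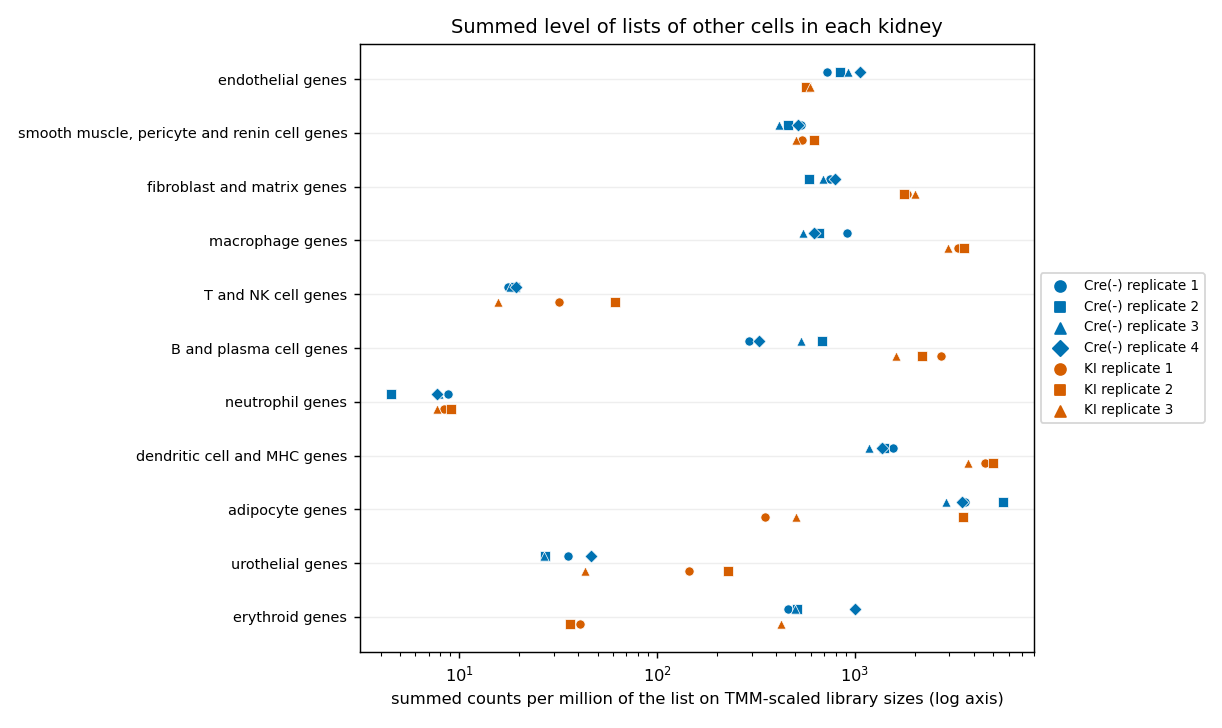
Summed CPM of marker lists for other cell types in each Cre(-) and PRCC-TFE3 KI kidney.

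Cytosolic ribosomal proteins build the machine that makes all other proteins. Most of their genes were higher in the knock-in kidneys. Of 31 tested, 27 rose and none fell (median 0.8). Rps15 was at 264, 249, 206 and 276 CPM in Cre(-) and at 532, 510 and 621 in PRCC-TFE3 KI, 2.23-fold up without overlap, and Rps20 and Rps19 rose 2.21-fold and 2.15-fold. Reads of ribosomal protein pseudogenes were not separated.

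List medians were also taken for fusion kidneys labeled as lacking Hif1α, Hif2α or both, against the same Cre(-) kidneys. All 4 comparisons share these controls, so their values are not independent, and no difference between them was tested. In the labeled deletions, in that order, whole-gene Hif1a RNA was at log2 values of 0.67, 0.84 and 0.69. Epas1 was at -0.41, -0.65 and -0.5. Loss of the deleted exons was not tested. Proximal S1 and S2 transporters were at -3.37 in PRCC-TFE3 KI and at -2.77, -3.04 and -2.7 in the deletions, in that order. Melanosome genes were at 1.94 beside 1.86, 1.97 and 1.57, nuclear respiratory chain genes at -0.93 beside -0.87, -1.05 and -1.02, and macrophage genes at 1.99 beside 2.48, 2.59 and 2.45. Other lists lay further apart, with adipocyte genes at 2.4 beside 0.69, 0.56 and 1.07, erythroid genes at -1.77 beside -3.45, -3.34 and -3.63, and interferon-stimulated genes at 0.46 beside 0.74, 1.5 and 1.25. The adipocyte and erythroid values of PRCC-TFE3 KI each rest on a single kidney. Without PRCC-TFE3 KI replicate 2 the adipocyte median was -0.4, and without replicate 3 the erythroid median was -4.41. Gpnmb ranged from 2806 to 11387 CPM in those 10 kidneys, below every PRCC-TFE3 KI kidney.

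The groups held 3 and 4 kidneys of unstated sex, and controls 1 and 2 carried floxed Hif1a. All values are RNA from bulk tissue, so protein, enzyme activity and cell numbers were not measured. The samples are described only as kidney, in a model that forms tumors, and the share of tumor in each knock-in sample is not known. Gene lists describe direction and size by counts and medians and were not tested as sets. They were chosen with earlier results of these data known, so their shares beside those of all genes are no test. Genes with few reads have wide errors, and folds from empty groups are lower bounds. Reads from the human fusion, paralogs and pseudogenes were not separated. Fat, urothelial and blood genes varied between single kidneys. Scaling changed the balance of higher and lower genes, which matters most for programs near 0.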

How the data were processed

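Total RNA of mouse kidneys was isolated with TRIzol and made into stranded mRNA libraries by the authors, and 7 of the 17 libraries are compared here. The authors trimmed reads with Trim Galore 0.6.6 and cutadapt 2.5, aligned them with STAR 2.7.9a and estimated transcript values with RSEM. They deposited a table of expected counts per transcript and a table of TPM per transcript, and both hold 119353 mouse transcripts although the methods name hg38 beside GRCm38. The human fusion has no entry of its own in these tables.

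Transcript values were summed to genes with GENCODE M21. Of the transcripts 116770 matched and 2583 did not, and 99.0 to 99.2% of counts were kept in 35971 genes. Counts were rounded, filtered with filterByExpr (minimum count 10), scaled by trimmed mean of M values (TMM) and fitted in edgeR 4.0.16 by quasi-likelihood with all 17 libraries in 5 groups, in R 4.3.3. TMM factors were 0.793, 0.833, 0.81 and 0.805 in Cre(-) and 1.065, 1.051 and 0.974 in PRCC-TFE3 KI. The contrast was PRCC-TFE3 KI minus Cre(-), adjusted by Benjamini-Hochberg over 17011 genes, and a gene counts as changed at an adjusted p under 0.05. Values of single kidneys are CPM, with TMM factors in the library size, in the order of replicate numbers, and TPM serves only to compare genes with each other. Errors beside log2 values are approximate standard errors for 4 and 3 kidneys. Each is the absolute log2 fold change divided by the square root of the quasi-likelihood F statistic. They rest on the variance estimate shared by all 17 libraries. A count of 3 in a library equals 0.161 to 0.206 CPM, so values under that rest on less than 3 counts, and these floors cover counting error only. Folds against a group without reads use 3 counts per library as the floor of that group and are lower bounds.

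The 61 gene lists (1076 entries, 1004 different genes, 979 of them tested) name cell types, segments and pathways. List members and lists were chosen with earlier results of these data known. Of the list genes 3 were found under an older name and 2 had no match, Ahsp and Xist. Of the 979 tested genes 362 were higher and 441 lower, beside 31.6% higher and 29.3% lower among all genes tested. Lists are described by counts in each direction and by the median log2 fold change. Genes were named by rule: Tfe3, Prcc, Gpnmb, Cdh16, Hif1a and Epas1; the 8 highest and 8 lowest changes at 10 TPM or more without overlap; and, per list, the 3 largest changes in its majority direction, its most abundant member and 1 member called in the other direction. The rule gave 256 genes, of which the report prints a part chosen for its biology after the values were seen, and some genes of the rule are not reported here.

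Promoter windows of 300 bases (250 before and 50 after the start) were taken from RefSeq GRCm38.p6, and 27025 genes had a window. Fits were also run on simulated counts with few changed genes, equally up and down, and the same relative spread for all genes. Such counts hold no broad shift, so they could not test how scaling acts here. Alternatives were DESeq2 1.42.0, its size factors in edgeR, library totals, no count filter, the 7 libraries alone, a replicate block, limma 3.58.1 on log2 TPM, control subsets, mitochondrial genes left out, a fold limit and each replicate left out. Python 3.11.15, numpy 2.4.6, pandas 2.3.3 and matplotlib 3.10.9 made tables and figures. The 10 kidneys with Hif1α or Hif2α deletions were left out of the results except where named.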

Additional observations from a re-analysis of the deposited data

Results flagged for a closer look

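Among the 4 Cre(-) kidneys, 16 results had a kidney far from the other 3, of 241 genes and 61 list sums looked at. Chance alone sets apart about 1 in 20 groups, which is close to the share seen here. Groups of 3, such as the PRCC-TFE3 KI kidneys, were not looked at in this way.

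Cre(-) replicate 2 was highest for the carbonic anhydrase Car2 (552 CPM), the fatty acid hydroxylase Cyp4a14 (1820), the pentose phosphate enzyme Pgd (111) and the sum of peroxisomal enzymes (11153). Cre(-) replicate 1 was highest for the protease Mmp8 (0.137 CPM), the fat cell protease Cfd (65.1), the steroid hydroxylase Cyp21a1 (0.0686), the amino acid transport chain Slc3a2 (335) and the sum of HIF targets (4961). Cre(-) replicate 3 was lowest for the chloride channel Clic3 (7.15 CPM) and highest for the stress factor Atf3 (3.51), the chemokine Cxcl1 (0.861) and the sum of thick ascending limb genes (10422). Cre(-) replicate 4 was highest for the globin Hbb-bs (390 CPM) and the sum of erythroid genes (1004) and lowest for the peptidase Mme (362). The causes were not tested.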

How the results depend on the processing

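The main counts were 5381 genes higher and 4981 lower in PRCC-TFE3 KI than in Cre(-) kidneys. They were within 1.5 times of this with DESeq2 (5331 and 5055), its size factors in edgeR (5304 and 5041), no count filter (5309 and 4889), the 7 libraries alone (4603 and 4478), Cre(-) replicates 3 and 4 (4837 and 4435) or 1 and 2 (4874 and 4558) as the control, and mitochondrial genes left out (5087 and 5235). With the replicate number as a block they were 3892 and 3946, although kidneys with the same number were not paired (correlations -0.04, -0.07 and -0.05). Leaving out each kidney in turn gave 4891 to 5166 higher and 4551 to 4827 lower.

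Scaling moved the counts further. They were 8546 and 2991 with library totals, 8843 and 2458 with limma on log2(TPM + 1), and 9021 and 2466 with a pseudocount of 0.1, all scales that shift the median gene up. A fold limit of 2 left 2436 and 2234, since it asks for more.

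Of 256 named genes, 248 passed the threshold. Of the 256, 6 took the other sign under another scaling or unit with at least 1 of the values past the threshold. Epas1 was at 0.03 with library totals and at 0.14 and 0.15 with the TPM pseudocounts of 1 and 0.1, Taldo1 at 0.35, 0.49 and 0.5. With TPM, Npnt was at 0.04 and 0.04, Cr2 at 0.44 and 0.54, and Tkt at 0.03 and 0.03. Slc3a2, not past the threshold at -0.2, was at 0.34 and 0.34 with TPM and at 0.14 with library totals. Gapdh (-0.2) and Star (-0.22), past it in neither, were at 0.14 and 0.12 with library totals. Without 1 kidney 20 genes changed a call, and 4, 13 and 4 lost it with the same sign without PRCC-TFE3 KI replicate 1, 2 or 3. Acsm3 (2.13) lost it without replicate 2 with the other sign and ranged from -0.53 without PRCC-TFE3 KI replicate 2 to 2.67. The cause was not tested.

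Of 61 list medians, cholesterol synthesis changed sign with library totals (0.18) and with TPM (0.28). Without PRCC-TFE3 KI replicate 3 autophagy (-0.03 to 0.18 over the kidneys left out), NRF2 targets (-0.03 to 0.11), HIF targets (-0.09 to 0.38) and glycolysis (-0.21 to 0.38) changed sign, and without replicate 2 adipocyte genes (-0.4 to 3.67) and lipid synthesis and storage (-0.06 to 0.33). The cause was not tested. A sex covariate was not run because Ddx3y and Eif2s3y, both Y-linked, were near 0 in every library. Depth limits genes under about 0.2 CPM, where 3 reads or less decide.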
